A study of Mus musculus with 32 samples.

Results

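H6pd and 7 further genes of the pentose phosphate pathway, G6pdx, Pgls, Pgd, Rpia, Rpe, Tkt and Taldo1, were followed through 32 RNA-seq libraries of mouse lumbar spinal cord. H6pd was chosen by its own counts in microglia of SOD1G93A/LAG-3+/+ mice at P140, where it was at or near 0, and the other genes were chosen by their place in the pathway. All 8 genes were present in each of 3 gene-level count tables of 74021, 74016 and 74021 rows, and all 8 passed the filter on low counts in each table. The first table holds CD11b+/CD45int microglia sorted by LAG-3, an inhibitory immune checkpoint receptor, with 4 WT libraries and 5 libraries of each fraction of SOD1G93A microglia, LAG-3-low or LAG-3-high. The SOD1G93A mice of this sort were at P140 and had an intact Lag3 gene. The second table, called the stage table here, holds microglia of the same gate from SOD1G93A/LAG-3+/+ mice and their SOD1G93A/LAG-3-/- counterparts at P120 and at P140, with 3 libraries in each of the 4 groups. The third holds whole lumbar cord of both genotypes at P140, with 3 libraries each. All mice other than WT carry the mutant human SOD1 transgene, a model of amyotrophic lateral sclerosis. The knockout is a germline deletion that removes LAG-3 from every cell type and not from microglia alone.

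The pentose phosphate pathway turns glucose 6-phosphate into ribose phosphate for nucleotides and into NADPH, the reductant used by glutathione and thioredoxin systems, lipid synthesis and the microglial NADPH oxidase. In the cytosol its oxidative branch runs through G6pdx (glucose 6-phosphate dehydrogenase), Pgls (6-phosphogluconolactonase) and Pgd (6-phosphogluconate dehydrogenase), and its non-oxidative branch through Rpia and Rpe (pentose phosphate isomerase and epimerase), Tkt (transketolase) and Taldo1 (transaldolase). H6pd works apart from these, in the lumen of the endoplasmic reticulum, where it carries out the first oxidative steps on glucose 6-phosphate and keeps NADPH available to the reductase Hsd11b1, which regenerates active glucocorticoid.

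H6pd (ENSMUSG00000028980) lies on the minus strand of chr4:150055676-150093559 in GRCm39, with a canonical transcript of 4571 bases. Pgd (ENSMUSG00000028961) lies on the same strand of chr4:149233246-149251228, 804 kb away, and the other members lie on chromosomes 1 (Rpe), 6 (Rpia), 7 (Taldo1), 8 (Pgls), 14 (Tkt) and X (G6pdx). The DNA before a RefSeq start of each of the 2 glucose 6-phosphate dehydrogenase genes, H6pd and G6pdx, is shown as a description. The H6pd start is given in another build than the gene position above and was not matched to it. It may lie inside the gene, so the 2 stretches are not shown to be like promoters. The 250 bases upstream of the RefSeq start are printed 5′ to 3′ on the gene's strand, from chr4:150003237-150003486 for H6pd and chrX:74428881-74429130 for G6pdx (RefSeq, GRCm38.p6, both genes on the minus strand), and the capitals mark a match to TGACNNNGC, the core of the antioxidant response element.
H6pd: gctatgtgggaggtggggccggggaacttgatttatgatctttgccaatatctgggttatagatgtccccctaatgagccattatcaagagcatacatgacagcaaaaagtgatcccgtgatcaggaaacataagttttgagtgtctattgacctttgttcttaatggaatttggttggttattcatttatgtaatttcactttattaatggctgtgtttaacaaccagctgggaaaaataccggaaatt
G6pdx: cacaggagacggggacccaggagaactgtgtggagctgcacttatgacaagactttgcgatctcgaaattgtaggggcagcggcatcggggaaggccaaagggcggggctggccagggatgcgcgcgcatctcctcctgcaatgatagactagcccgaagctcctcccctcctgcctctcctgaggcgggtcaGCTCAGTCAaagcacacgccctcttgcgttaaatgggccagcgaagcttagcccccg
The H6pd stretch is 38.8% G and C with 3 CpG pairs and the G6pdx stretch is 61.2% G and C with 15, against medians of 52.4% and 6 over 32851 RefSeq windows. The motif was searched on both strands of the whole windows, which run 50 bases past the start. It was found in 2 of the 9 member windows, those of G6pdx (minus strand, starting 57 bases before the start) and of 1 of the 2 Pgd starts, and in 12.4% of all windows. A match is a description of these letters and not a site.

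Depth was 9403286 to 22850356 counts per library in the LAG-3 sort, 23981240 to 49512341 in the stage table and 19429873 to 26994340 in the cord. The deleted gene followed its labels, with 430 to 3334 Lag3 counts in the 6 LAG-3+/+ microglia libraries of the stage table and 1 to 14 in the 6 LAG-3-/- libraries, and with 1010 to 1992 against 100 to 142 in the cord. Within LAG-3+/+ microglia of the stage table Lag3 was lower at P140 (24.45 to 28.07 CPM) than at P120 (53.35 to 62.95 CPM). All 7 microglial markers were detected in every microglia group. A list of 13 neutrophil markers was summed as a check on the gate. Its sum was 6009 to 70510 CPM in WT, 23000 to 67100 CPM in LAG-3-low and 3.55 to 9.67 CPM in LAG-3-high libraries, where Elane and Mmp9 were at 0. In the stage table it was 1759 to 2602 CPM at P120 in LAG-3+/+, 2.81 to 6.58 CPM at P120 in LAG-3-/-, 3.92 to 3493 CPM at P140 in LAG-3+/+ and 4.03 to 4685 CPM at P140 in LAG-3-/- libraries. WT libraries 1 and 4 had less Lag3 than the other WT libraries (1.07 and 0.508 CPM against 6.88 and 9.995 CPM), and sort results are given without them where this mattered. That split rests on this gene alone, at 21 and 8 counts. The neutrophil sum was instead higher in WT libraries 2 and 4 (36480 and 70510 CPM) than in libraries 1 and 3 (6009 and 9428 CPM). Leaving out WT libraries 1 and 4 keeps WT library 2, which was far from the others in G6pdx.

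In the stage table H6pd was close to absent from P140 LAG-3+/+ microglia and present in all the other groups. Its counts were 7, 1 and 0 in the P140 LAG-3+/+ libraries, 1827, 2942 and 917 in P120 LAG-3+/+, 2163, 746 and 1912 in P120 LAG-3-/-, and 334, 1761 and 1041 in P140 LAG-3-/-. The 3 P140 LAG-3+/+ libraries lay below the other 9 with no overlap, and the other groups overlapped each other. In CPM scaled by TMM, the normalised read count used throughout, H6pd was 40.9 ± 14.2 (SD, n = 3) in P120 LAG-3-/-, 38.5 ± 15.5 in P120 LAG-3+/+, 30.1 ± 15.03 in P140 LAG-3-/- and 0.116 ± 0.154 in P140 LAG-3+/+. The first 3 of these levels did not differ beyond their spread. On the log2 scale the P140 LAG-3+/+ mean minus the mean of the other 3 groups was -8.003, against an SD within groups of 0.90. Since H6pd was chosen for this pattern, no test of it is given.

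Pooled over libraries and divided by depth scaled with the TMM factors, the 8 counts of P140 LAG-3+/+ were 339-fold lower than the 5686 counts of P120 LAG-3+/+. They were 273-fold lower than the 3136 counts of P140 LAG-3-/-. Both are a description of the values that chose H6pd. The P140 LAG-3+/+ libraries held 23981240 to 33996357 counts in total, against 26555767 to 49512341 in the other 9. They had high microglial marker sums (33570 to 40220 CPM) and few genes with a count (18896 to 20489, against 23459 to 24942 in 8 other libraries). Library 1 of P140 LAG-3-/- resembled them in both, with 36970 CPM of microglial markers and 20260 genes detected. It had the lowest H6pd of its group, at 334 counts and 13.2 CPM, and the P140 LAG-3+/+ libraries with 20269 and 20489 genes had 7 and 0 counts. The libraries with the fewest genes detected thus had the lowest H6pd, while at 20260, 20269 and 20489 genes its counts were 334, 7 and 0. The part of gene detection in the H6pd level was not tested. The neutrophil marker sum was 3493, 679 and 3.92 CPM in the 3 P140 LAG-3+/+ libraries, and H6pd was at most 0.291 CPM in each.

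**Figure D1:**
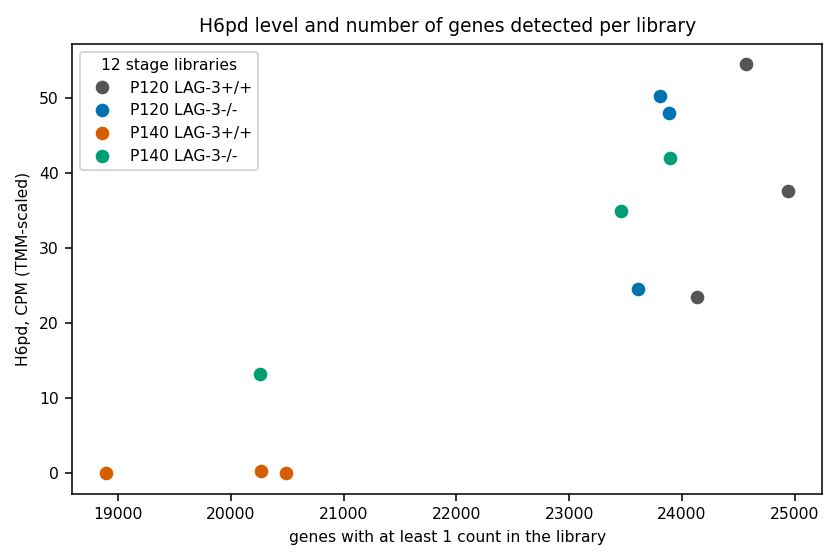
H6pd level in CPM (vertical axis) by the number of detected genes, those with a count of 1 or more (horizontal axis), in the 12 stage libraries, coloured by group. The 3 P140 LAG-3+/+ libraries lie at 0 to 0.291 CPM and library 1 of P140 LAG-3-/-, at 20260 genes, lies at 13.2 CPM.

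Long transcripts had lower levels as a class in the P140 LAG-3+/+ libraries. The median log2 difference between P140 and P120 in LAG-3+/+ was -1.05 over the 4663 tested genes with canonical transcripts of at least 4209 bases, a class that holds H6pd, against 0.09, 0.45 and -0.28 in the 3 shorter length classes of like size and -0.22 over all genes. With transcript length and GC content fitted per library, the H6pd difference from the other 3 groups was -7.11 on the log2 scale. The part of transcript length in the H6pd level beyond this fit was not tested.

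Few genes shared such a loss. Under a limit of at most 10 counts in each P140 LAG-3+/+ library with at least 1 CPM in the other 9, a limit set after the values were seen, 24 genes qualified and H6pd had the highest level of them in the other 9 libraries (mean 36.5 CPM, lowest 13.2), followed by C2cd2l (18.9), Zfp280b (13.6), Ajm1 (12.5) and the receptor gene Notch1 (9.40). Under a limit of at most 3 counts 10 genes qualified, led by Ajm1, Pcdhga5, Rab11fip3, Plekhn1 and Zfp568, and H6pd with its 7 counts was not among them. With either limit 0 genes qualified for P120 LAG-3+/+, P120 LAG-3-/- or P140 LAG-3-/- in turn.

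The genes most like H6pd across the 12 libraries were 9930111J21Rik2 (Pearson r = 0.986, Spearman rho = 0.797), Gm49015 (0.983, 0.921), Rexo1 (0.982, 0.804), C2cd2l (0.979, 0.986) and Sgpl1 (0.979, 0.895). Sgpl1, the sphingosine 1-phosphate lyase of the endoplasmic reticulum, averaged 509 CPM at P120 in LAG-3+/+, 118 CPM at P140 in LAG-3+/+ and 458 CPM at P140 in LAG-3-/-. It thus kept a clear level where H6pd did not. The 3 P140 LAG-3+/+ libraries lie apart from the other 9 on this measure, and no coefficient was computed within either set. Among the pathway members r with H6pd ran from -0.857 (Taldo1) and -0.787 (G6pdx) to 0.706 (Pgd).

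The genes beside H6pd did not pass the test where H6pd was lost. Of 29 annotated genes within 200 kb, 8 were tested. The nearest expressed gene, Spsb1, 16.2 kb away, was at 78.5 ± 2.11 CPM in P120 LAG-3+/+ and 50.3 ± 27.0 CPM in P140 LAG-3+/+ (n = 3 each). Slc2a5, a fructose transporter gene 103 kb away, was at 190 ± 45.4 and 257 ± 19.7 CPM. For P140 against P120 in LAG-3+/+ the adjusted p of the 8 ranged from 0.146 (Gm54270) to 0.954 (Slc25a33) in edgeR. A non-coding gene inside H6pd on the same strand, Gm69401, had at most 18 counts in a P140 LAG-3+/+ library. Reads from Gm69401 and H6pd could be divided between them by the quantifier, so the last few counts of H6pd are uncertain.

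The 7 other members were all detected in every P140 LAG-3+/+ library. Comparing P140 with P120 in LAG-3+/+ microglia asks how late disease differs from early disease when LAG-3 is present. Here Taldo1 and G6pdx rose and the other 5 members did not pass the test (adjusted p under 0.1 in edgeR, no minimum fold). The 2 of 7 compare with 27.4% of all 18669 genes tested that were called in this comparison, and with 11.9% called as higher, so the members were called about as often as genes at large. Taldo1 was 153, 163 and 124 CPM at P120 and 262, 285 and 339 CPM at P140. The groups did not overlap, and the log2 fold change was 1.01 ± 0.18 (SE, adjusted p = 0.00667). G6pdx was 54.4, 61.0 and 50.6 CPM at P120 and 84.9, 138 and 87.3 CPM at P140. These groups did not overlap either, and the log2 fold change was 0.90 ± 0.31 (SE, adjusted p = 0.0654). The cytosolic and the endoplasmic reticulum dehydrogenase gene lay in opposite directions in the same libraries. This is a description only, as H6pd was chosen for its low level there.

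The G6pdx call was lost without any 1 of the 3 P120 libraries or without P140 library 2 (adjusted p 0.130 to 0.224), and under a fit without TMM factors (log2 fold change 0.40, adjusted p = 0.353), where the median over all genes was -0.70 in place of -0.22. It was also narrowly lost with no filter on low counts (adjusted p = 0.110). With transcript length and GC content fitted, the Taldo1 change shrank to 0.12 (adjusted p = 0.732) and that of G6pdx grew to 1.88 (adjusted p = 0.0218).

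Pgls was 44.6, 33.7 and 33.3 CPM at P120 and 64.1, 52.8 and 50.6 CPM at P140 in LAG-3+/+, with no overlap, but did not pass the test (log2 fold change 0.59 ± 0.25, SE, adjusted p = 0.126). It was called by DESeq2 (adjusted p = 0.0185). Pgd was 203, 177 and 157 CPM at P120 and 176, 104 and 127 CPM at P140 (log2 fold change -0.40 ± 0.25, SE, adjusted p = 0.289), and the groups overlapped. Rpia, Rpe and Tkt had adjusted p-values of 0.655, 0.412 and 0.746. Rpia was the least precise member, at 0.455 to 13.9 CPM over the 12 libraries with a standard error of 1.05 on the log2 scale. Tkt was steady in the stage table, at 97.3 to 181 CPM.

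**Figure D2:**
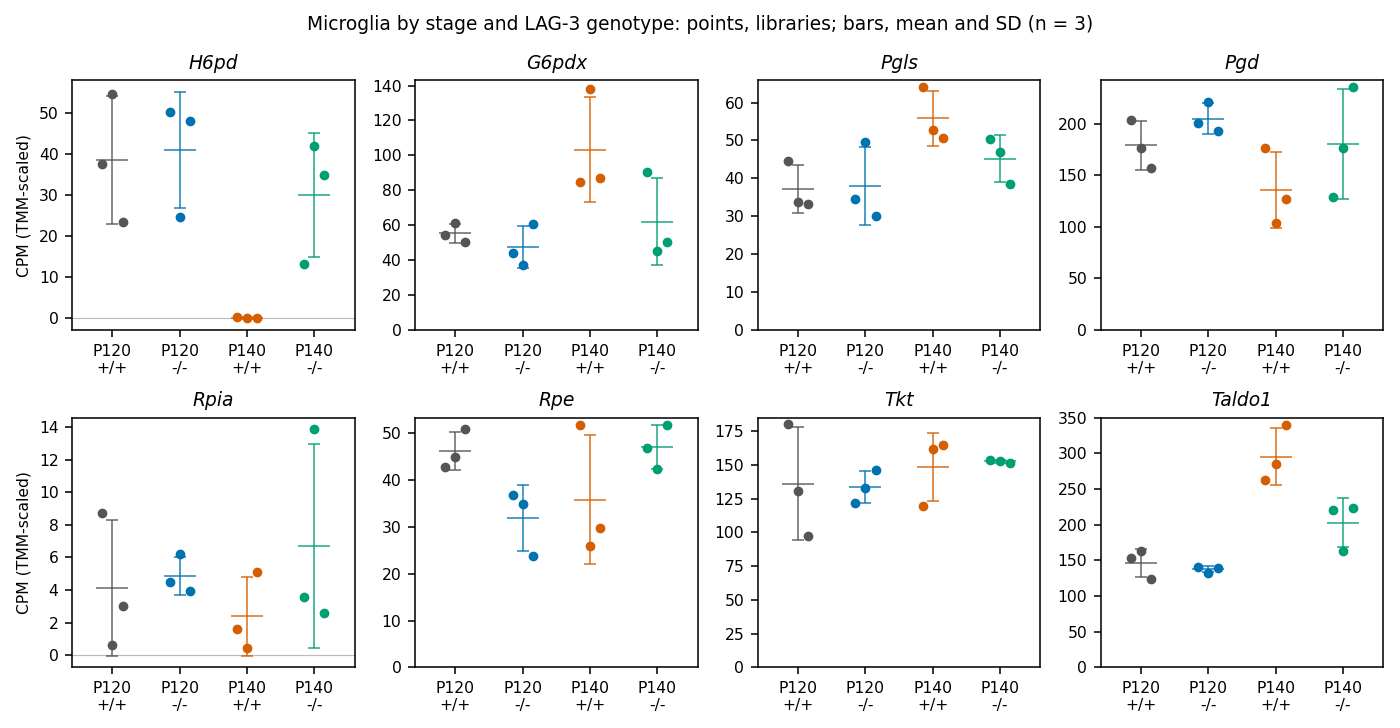
Normalised read counts (CPM, vertical axes with 0 included) of the 8 genes in the 12 stage libraries, by stage and LAG-3 genotype, with the mean and SD of each group of 3. H6pd lies at 0 to 0.291 CPM in P140 LAG-3+/+ and at 13.2 CPM or more elsewhere, while Taldo1 and G6pdx have their highest group means in P140 LAG-3+/+.

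In LAG-3-/- microglia the comparison of P140 with P120 called 0 of the 7 members in edgeR and in DESeq2, against 0.00% of all genes in edgeR, and 1 member and 1658 of all genes had an unadjusted p under 0.05. That member, Taldo1, was 141, 133 and 140 CPM at P120 and 221, 164 and 224 CPM at P140 in LAG-3-/-, with no overlap (log2 fold change 0.56 ± 0.18, SE, adjusted p = 0.475). The comparison of genotypes at P120 called 0 of 7 with either tool (0.0107% of all genes), with log2 fold changes of -0.54 to 0.25 and 0 unadjusted p-values under 0.05 among the members and 551 among all genes.

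At P140 the comparison of LAG-3-/- with LAG-3+/+ microglia called 0 of 7 members in edgeR against 10.2% of all genes. An unadjusted p under 0.05 was found for 2 members and for 4495 of all 18669 genes. Taldo1 lay at 221, 164 and 224 CPM in LAG-3-/- against 262, 285 and 339 CPM in LAG-3+/+, with no overlap (log2 fold change -0.54 ± 0.18, SE, adjusted p = 0.106). G6pdx lay at 90.5, 45.3 and 50.3 CPM against 84.9, 138 and 87.3 CPM, and only LAG-3-/- library 1, the one that resembled the LAG-3+/+ libraries above, overlapped (log2 fold change -0.74 ± 0.31, SE, adjusted p = 0.179). DESeq2 called both. Without that library G6pdx was called in edgeR (log2 fold change -1.11, adjusted p = 0.0287) and so was Taldo1 (-0.61, adjusted p = 0.0628). Taldo1 was also called without P140 LAG-3+/+ library 1 (-0.62, adjusted p = 0.0923), but with length and GC content fitted the Taldo1 difference turned to 0.10 (adjusted p = 0.828). Pgd was 0.41 ± 0.25 (SE) higher in LAG-3-/- on the log2 scale (adjusted p = 0.342).

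The genotype-by-stage interaction asks whether the change from P120 to P140 differs between genotypes. It was called for 0 of 7 members in edgeR and in DESeq2, against 0.171% of all genes in edgeR. In edgeR 1 member (Rpe, log2 0.93 ± 0.41, SE, adjusted p = 0.351) and 2541 of all 18669 genes had an unadjusted p under 0.05. The rise of Taldo1 and G6pdx in LAG-3+/+ is therefore not shown to differ from their course in LAG-3-/-. The interaction was -0.45 ± 0.26 (SE) for Taldo1 and -0.51 ± 0.44 (SE) for G6pdx.

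Of further pentose phosphate genes, 12 of 16 listed were tested, and 5 rose and 0 fell from P120 to P140 in LAG-3+/+, a comparison that called 27.4% of all genes and 11.9% as higher (median log2 fold change 0.83 against -0.22 over all genes). They were Rbks (ribokinase, 1.58), Prps1 (phosphoribosyl pyrophosphate synthetase, 1.52), Dera (deoxyribose phosphate aldolase, 1.34), Idnk (gluconate kinase, 0.89) and Prpsap2 (0.77), with adjusted p-values of 0.0295 to 0.0922. Genes of this and the other lists were examined in the main fit only. Whether their differences hold with transcript length and GC content fitted was not examined. Rbks went from 5.89 to 6.73 CPM at P120 to 11.1 to 24.3 CPM at P140, with no overlap. Among the genes that handle glucose 6-phosphate and NADPH in the endoplasmic reticulum, 1 of 5 tested rose and 0 fell, near the share of all genes. This was G6pc3, a glucose 6-phosphatase, which gained 0.93 (adjusted p = 0.0227). The transporter gene Slc37a4, which brings glucose 6-phosphate to H6pd, differed by 0.15 (adjusted p = 0.873). Hsd11b1 was at most 3.24 CPM in LAG-3+/+ libraries of either stage.

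Among the other sources of NADPH, 1 of 12 rose and 3 fell in this comparison, close to the 27.4% of all genes called. Mthfd2 of the mitochondrial folate cycle rose by 1.01 (adjusted p = 0.0158), and its cytosolic relative Mthfd1 fell by 0.79 (adjusted p = 0.0346). Nadk2, the mitochondrial NAD kinase, fell by 3.01 (adjusted p = 0.0101), from 25.1 to 36.5 CPM at P120 to 0.884 to 7.39 CPM at P140. Aldh1l2, the mitochondrial formyltetrahydrofolate dehydrogenase, fell (adjusted p = 0.0501) from 2 to 80 counts at P120 to 0 to 2 counts at P140. At P140 the 2 of 12 that were called between genotypes, where 10.2% of all genes were called, were Aldh1l2 (32 to 97 counts in LAG-3-/- libraries, adjusted p = 0.0662) and Nadk2 (1.97 higher in LAG-3-/-, at 10.3 to 20.2 CPM, adjusted p = 0.0856). Of 9 tested NRF2 targets and NADPH-using reductases, 3 rose from P120 to P140 in LAG-3+/+ (Srxn1 1.86, Hmox1 1.17 and Nfe2l2 itself 0.73) and 2 fell (Gclc -2.42 and Txnrd1 -1.49), with adjusted p-values of 0.0309 to 0.0587, in the comparison that called 27.4% of all genes and 11.9% as higher. Over the 4 lists the adjusted p was 1 for every gene for genotype at P120, and the smallest was 0.475 (Prps1) for P140 against P120 in LAG-3-/- and 0.239 (Nadk2) for the interaction.

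In the LAG-3 sort H6pd was detected in every library and did not separate the groups. It was 5.41, 89.7, 29.3 and 38.1 CPM in WT, 56.6, 28.0, 33.9, 48.7 and 39.7 CPM in LAG-3-low, and 19.1, 34.6, 51.5, 42.4 and 44.1 CPM in LAG-3-high. The 3 groups overlapped. The log2 fold changes were 0.03 ± 0.55 (SE) for LAG-3-low against WT, -0.08 ± 0.55 for LAG-3-high against WT and -0.11 ± 0.52 between the 2 SOD1G93A fractions, with adjusted p-values of 0.978, 0.937 and 0.990. The last has an interval of 2 standard errors from -1.15 to 0.93, so differences within that interval are not excluded. The 10 sorted SOD1G93A libraries, also from P140 mice with Lag3 intact, thus held H6pd at 19.1 to 56.6 CPM, where the 3 P140 LAG-3+/+ libraries of the stage table held 0 to 0.291 CPM. The 2 tables were scaled separately.

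Comparing LAG-3-low SOD1G93A microglia with WT called 3 of 8 members, all higher, at an adjusted p under 0.1 and an absolute log2 fold change over 1. All genes were called at 21.9%, and at 10.9% as higher. Pgd was 121, 150, 108 and 61.8 CPM in WT and 271, 293, 360, 323 and 259 CPM in LAG-3-low, with no overlap (log2 fold change 1.45 ± 0.23, SE, adjusted p = 0.00102). Tkt was 50.2, 244, 116 and 83.6 CPM in WT and 314, 461, 458, 445 and 209 CPM in LAG-3-low (1.61 ± 0.38, SE, adjusted p = 0.0115), and WT library 2 overlapped the lowest LAG-3-low library. G6pdx was 21.4, 155, 30.7 and 12.4 CPM in WT and 140, 257, 259, 232 and 147 CPM in LAG-3-low (1.92 ± 0.58, SE, adjusted p = 0.0379), again with WT library 2 inside the LAG-3-low range. Without WT libraries 1 and 4 the Pgd and Tkt calls held and that of G6pdx was lost (1.20, adjusted p = 0.142). It was also lost when only these 2 groups were fitted (adjusted p = 0.125). Taldo1 (0.77 ± 0.23, SE, adjusted p = 0.0359) and Pgls (0.82 ± 0.30, SE, adjusted p = 0.0778) passed on p and not on fold, and Pgls passed on both without WT library 2 (1.07, adjusted p = 0.0201).

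Comparing LAG-3-high microglia with WT called 1 of 8 members, which was higher, against 27.0% of all genes and 12.1% called as higher. This was Pgd, at 269, 236, 219, 218 and 217 CPM in LAG-3-high, all above the 4 WT libraries (log2 fold change 1.07 ± 0.22, SE, adjusted p = 0.00429). The p held in every alternative and the fold did not: without WT library 4 it was 0.89, without WT libraries 1 and 4 it was 0.87, without TMM factors 0.73 (where the median over all genes was -0.39 in place of -0.08) and with length and GC content fitted 0.54. Pgls came close (0.75 ± 0.30, SE, adjusted p = 0.0921, under the fold limit). G6pdx, Tkt and Taldo1 were 0.39 ± 0.56, 0.51 ± 0.37 and -0.30 ± 0.23 (SE) with adjusted p-values of 0.654, 0.344 and 0.377. WT library 2 weighed on these, as without it 4 members were called, G6pdx (1.76), Tkt (1.09), Pgls (1.01) and Pgd.

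Comparing LAG-3-high with LAG-3-low microglia, the question of the sort, called 1 of 8 members, which was lower, against 3.49% of all 16508 genes and 2.67% called as lower. Taldo1 was 345, 484, 456, 437 and 240 CPM in LAG-3-low and 197, 187, 165, 206 and 180 CPM in LAG-3-high, with no overlap (log2 fold change -1.07 ± 0.22, SE, adjusted p = 0.0141). Without LAG-3-low library 2 its fold change was -0.98 and it was no longer past the fold limit. Tkt was 191, 155, 176, 181 and 177 CPM in LAG-3-high, all below the 5 LAG-3-low libraries (-1.10 ± 0.34, SE, adjusted p = 0.125). G6pdx was 79.8, 72.5, 61.3, 57.8 and 87.9 CPM in LAG-3-high, also all below LAG-3-low (-1.53 ± 0.53, SE, adjusted p = 0.187). Both were called by DESeq2 (adjusted p 0.0328 and 0.0546), when the WT libraries were left out of the fit (0.000844 and 0.000109), without WT libraries 1 and 4 (0.00845 and 0.0137) and without WT library 2 alone (0.0246 and 0.00592) or WT library 4 alone (0.0832 and 0.0658). Tkt was also called without WT library 1 (0.0416) and without LAG-3-low library 5 (0.0814). Pgd (-0.38 ± 0.21, SE, adjusted p = 0.531) and Pgls (-0.07 ± 0.28, SE, adjusted p = 0.987) did not pass, and their LAG-3-high levels overlapped those of LAG-3-low.

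Neutrophil markers moved with Taldo1, Tkt and G6pdx. They summed to 28600, 52720, 67100, 49920 and 23000 CPM in LAG-3-low libraries 1 to 5 and to at most 9.67 CPM in LAG-3-high. LAG-3-low libraries 1 and 5 had the lowest marker sums and also the 2 lowest levels of G6pdx, Tkt and Taldo1 of their group. WT library 4 had 70510 CPM of neutrophil markers and only 12.4 CPM of G6pdx. Other marker lists also separated the fractions without overlap. In LAG-3-low and LAG-3-high, monocyte and border macrophage markers summed to 140.6 to 344.4 CPM and 2.96 to 13.97 CPM. Lymphocyte markers summed to 4.142 to 31.59 CPM and 0.4926 to 1.202 CPM. Those of astrocytes were lower in LAG-3-low, at 2.964 to 12.65 CPM against 26.78 to 71.67 CPM, as were those of endothelium and microglia. The part of RNA from neutrophils or other cell types in the differences of Taldo1, Tkt and G6pdx was not tested.

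**Figure D3:**
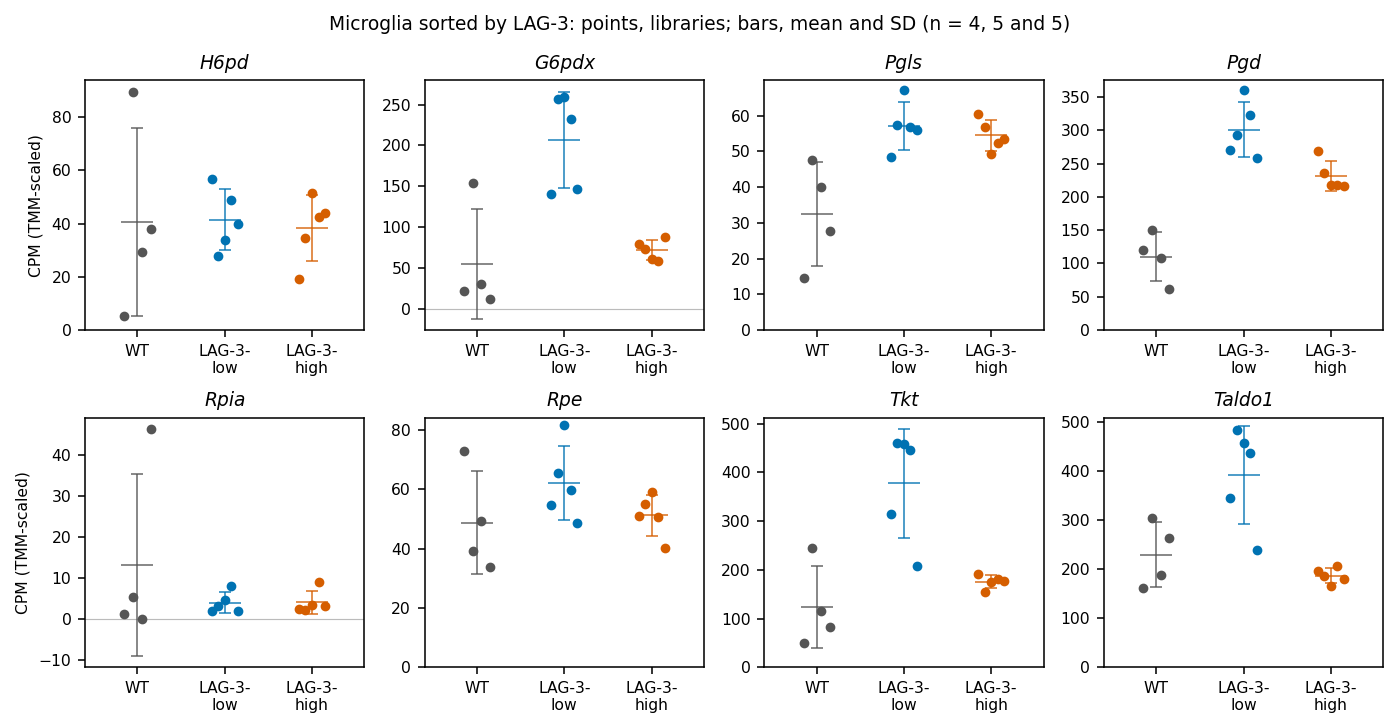
Normalised read counts (CPM, vertical axes with 0 included) of the 8 genes in the 3 groups of the LAG-3 sort, with points for libraries and bars for the mean and SD (n = 4, 5 and 5). Taldo1, Tkt and G6pdx are higher in all 5 LAG-3-low than in all 5 LAG-3-high libraries, Pgd is lower in WT, and the 3 groups overlap for H6pd.

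Rpia and Rpe did not pass in the sort, with adjusted p-values of 0.314 to 0.998 over the 3 comparisons. Rpia was 46.4 CPM in WT library 4 and 0.0565 CPM in WT library 3. Rpe was within 33.8 to 81.6 CPM over all 14 libraries.

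Of the 5 tested genes that handle glucose 6-phosphate and NADPH in the endoplasmic reticulum, 3 were called between the 2 SOD1G93A fractions, where 3.49% of all genes were called. G6pc3 and Slc37a4 were not called. Hsd11b1, the reductase that H6pd supplies, was at 24.9 to 90.0 CPM in LAG-3-low and 0 to 0.667 CPM in LAG-3-high (adjusted p = 0.0284), and it too moved with the neutrophil markers, whose part was not tested. Slc37a1 was lower in LAG-3-high (-1.75 ± 0.47, SE, adjusted p = 0.0607) and Slc37a2, a sugar phosphate transporter of the endoplasmic reticulum, was higher (1.14 ± 0.32, SE, adjusted p = 0.0749). Against WT, LAG-3-high also differed in 3 of the 5, where 27.0% of all genes were called (Slc37a2 1.62, adjusted p = 0.00543, Slc37a1 -1.20, adjusted p = 0.0906, and Hsd11b1, adjusted p = 0.0140). For LAG-3-low against WT the smallest adjusted p of the 5 was 0.354 (Slc37a2). Of the 12 further pentose phosphate genes, the smallest adjusted p between the SOD1G93A fractions was 0.540 (Idnk). Tigar, a fructose bisphosphatase that feeds the pathway, was higher and Prpsap2 lower than WT in LAG-3-high (3.72 and -1.29) and in LAG-3-low (3.63 and -1.35), with adjusted p-values of 0.0353 to 0.0990. These are 2 of 12 in each comparison, under the 27.0% and 21.9% of all genes called.

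Of the 11 tested other sources of NADPH, 4 were called for LAG-3-low against WT, where 21.9% of all genes were called, and 1 between the fractions, where 3.49% were. Me2, a mitochondrial malic enzyme, rose in LAG-3-low against WT (1.79, adjusted p = 0.0126) and was the 1 called between the fractions, lower in LAG-3-high (-1.55, adjusted p = 0.0467). LAG-3-low also differed from WT in Nadk (1.32), Idh2 (-1.08) and Aldh1l1 (-5.71), while for LAG-3-high against WT Idh2 came closest (-0.97, adjusted p = 0.0482, under the fold limit). Of 9 NRF2 targets and reductases, 5 rose and 2 fell in LAG-3-high against WT and 5 rose and 1 fell in LAG-3-low against WT. Over all genes these comparisons called 27.0% (12.1% higher) and 21.9% (10.9% higher). Srxn1 (sulfiredoxin) had 0 to 2 counts in WT libraries and at least 83 in every SOD1G93A library. Hmox1 (heme oxygenase) went from 0.698 to 11.2 CPM in WT to 41.1 to 101 CPM in LAG-3-low and 91.6 to 118 CPM in LAG-3-high. Txnrd1 rose in both (1.66 and 2.08), as did Slc7a11 (4.14 and 2.82), and Gclc fell in both (-1.48 and -1.45). Nfe2l2 was called in LAG-3-high against WT only (1.03, adjusted p = 0.0192). Gsr, glutathione reductase, was higher than WT in LAG-3-low (1.65, adjusted p = 0.0431), lower than WT in LAG-3-high (-1.46, adjusted p = 0.05004) and the 1 of 9 called between the fractions (-3.12, adjusted p = 0.00369). Between those fractions Me2 and Gsr moved with the neutrophil markers, which summed to 23000 to 67100 CPM in LAG-3-low and 3.55 to 9.67 CPM in LAG-3-high, and the part of neutrophil RNA in these 2 genes was not tested.

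In the spinal cord at P140 the tissue of LAG-3-/- mice was compared with that of LAG-3+/+ mice. With a minimum fold as in the sort, 0 of 8 members were called in edgeR and in DESeq2, against 7.52% of all genes in edgeR. In edgeR 5 members and 8441 of all 17702 genes had an unadjusted p under 0.05. On an adjusted p under 0.1 alone, 5 of 8 passed, 3 higher and 2 lower in LAG-3-/-, against 47.1% of all 17702 genes, 23.1% higher and 23.9% lower. The share of members was thus near that of all genes, and each difference was under 2-fold. In whole tissue fewer cells of a type and less RNA per cell cannot be told apart.

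H6pd was 12.2, 11.7 and 13.03 CPM in LAG-3+/+ and 7.32, 8.92 and 7.76 CPM in LAG-3-/- cord, with no overlap (log2 fold change -0.62 ± 0.14, SE, adjusted p = 0.00582). It was thus lower in the LAG-3-/- tissue, while in P140 microglia the LAG-3+/+ libraries were the low ones, and whether the difference between tissue and microglia passes a test was not examined. G6pdx lay in the same direction in cord, at 74.8, 82.5 and 88.4 CPM in LAG-3+/+ and 65.2, 58.3 and 69.5 CPM in LAG-3-/-, with no overlap (-0.35 ± 0.11, SE, adjusted p = 0.0253).

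Pgls, Taldo1 and Tkt were higher in LAG-3-/- cord. Pgls was 18.6, 17.0 and 18.3 CPM in LAG-3+/+ and 31.8, 28.4 and 29.1 CPM in LAG-3-/- (log2 fold change 0.73 ± 0.11, SE, adjusted p = 0.000635). Taldo1 was 106, 110 and 121 CPM in LAG-3+/+ and 189, 153 and 147 CPM in LAG-3-/- (0.54 ± 0.12, SE, adjusted p = 0.00556). Tkt was 177, 212 and 212 CPM in LAG-3+/+ and 288, 270 and 269 CPM in LAG-3-/- (0.46 ± 0.12, SE, adjusted p = 0.0100). The groups did not overlap for any of the 3, and how often genes at large lacked overlap is not given. Pgd (0.13 ± 0.09, SE, adjusted p = 0.275), Rpia (0.22 ± 0.14, SE, adjusted p = 0.250) and Rpe (-0.14 ± 0.13, SE, adjusted p = 0.433) did not pass.

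Pgls has the shortest canonical transcript of the members (944 bases) and the highest GC content (65.8%). With length and GC content fitted, the differences of Pgls (-0.10), Taldo1 (0.01) and G6pdx (0.00) were no longer past the threshold (adjusted p 0.534 to 0.987), while those of H6pd (-0.57, adjusted p = 0.0176) and Tkt (0.40, adjusted p = 0.0308) held. Sums over 4 oligodendrocyte markers moved with genotype, at 15250 to 16740 CPM in LAG-3+/+ and 21840 to 30950 CPM in LAG-3-/-, as did 7 microglial markers, at 1103 to 1387 CPM and 789.9 to 1078 CPM. The part of cell makeup in the cord differences was not tested.

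**Figure D4:**
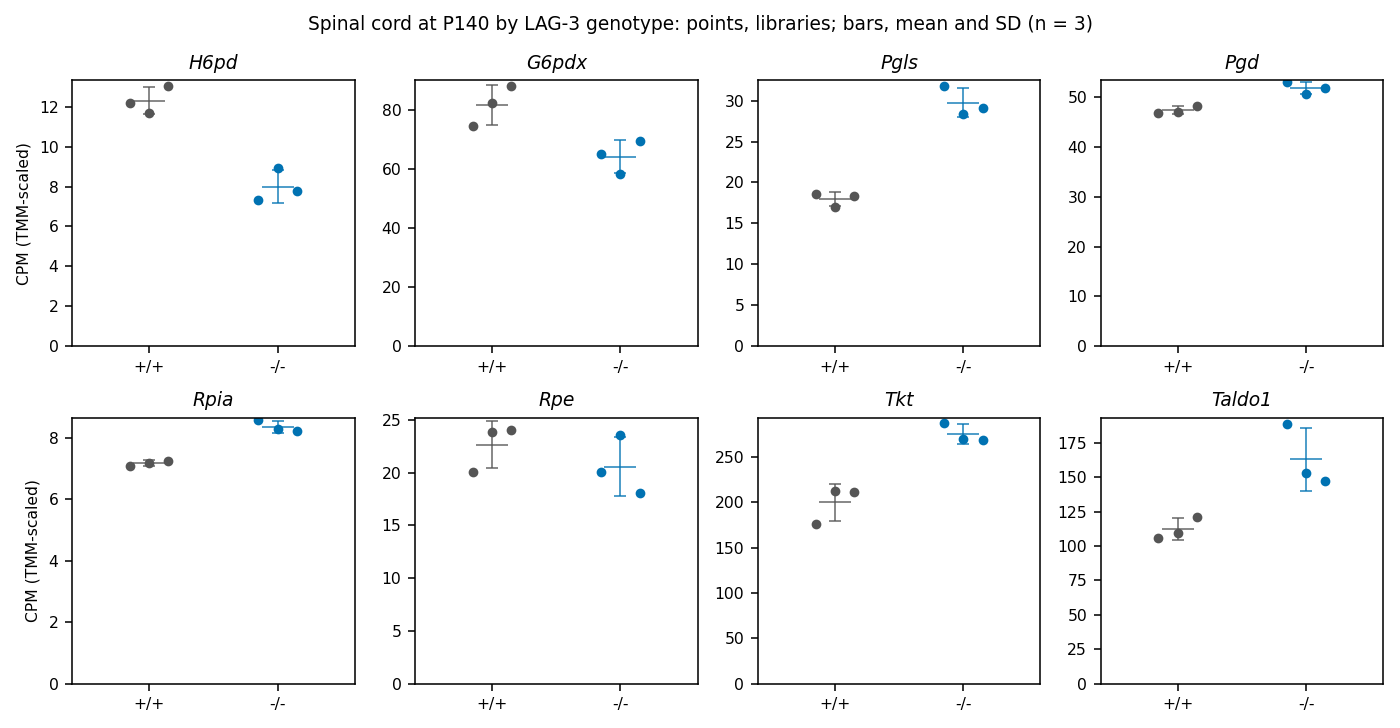
Normalised read counts (CPM, vertical axes with 0 included) of the 8 genes in P140 spinal cord of LAG-3+/+ and LAG-3-/- mice, with points for libraries and bars for the mean and SD (n = 3 each). H6pd and G6pdx are lower, and Pgls, Tkt and Taldo1 higher, in all 3 LAG-3-/- libraries.

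The lists were counted in cord on an adjusted p under 0.1 alone, as 47.1% of all genes passed (23.1% higher and 23.9% lower), and every fold change named here is under the fold limit of 1 on the log2 scale. Of the 12 further pentose phosphate genes, 7 passed, 5 higher (Idnk 0.72, Rbks 0.62, Prpsap2 0.38, Prpsap1 0.28 and Pgm1 0.26) and 2 lower (Pgm2 -0.52 and Prps2 -0.36). In the endoplasmic reticulum list 4 of 5 passed, Hsd11b1 (0.81), Slc37a4 (0.29) and G6pc3 (0.28) higher and Slc37a2 (-0.76) lower, so that H6pd and the reductase it supplies lay in opposite directions in cord. Of 12 other NADPH sources 2 were higher (Mthfd2 0.31 and Idh2 0.27) and 2 lower (Aldh1l2 -0.74 and Me2 -0.48). Of 10 NRF2 targets and reductases 1 was higher (Txnrd2 0.75) and 6 were lower (Hmox1 -0.81, Slc7a11 -0.67, Nfe2l2 -0.60, Gclc -0.43, Txnrd1 -0.37 and Gclm -0.31), with a list median of -0.34 against 0.00 over all genes.

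**Figure D5:**
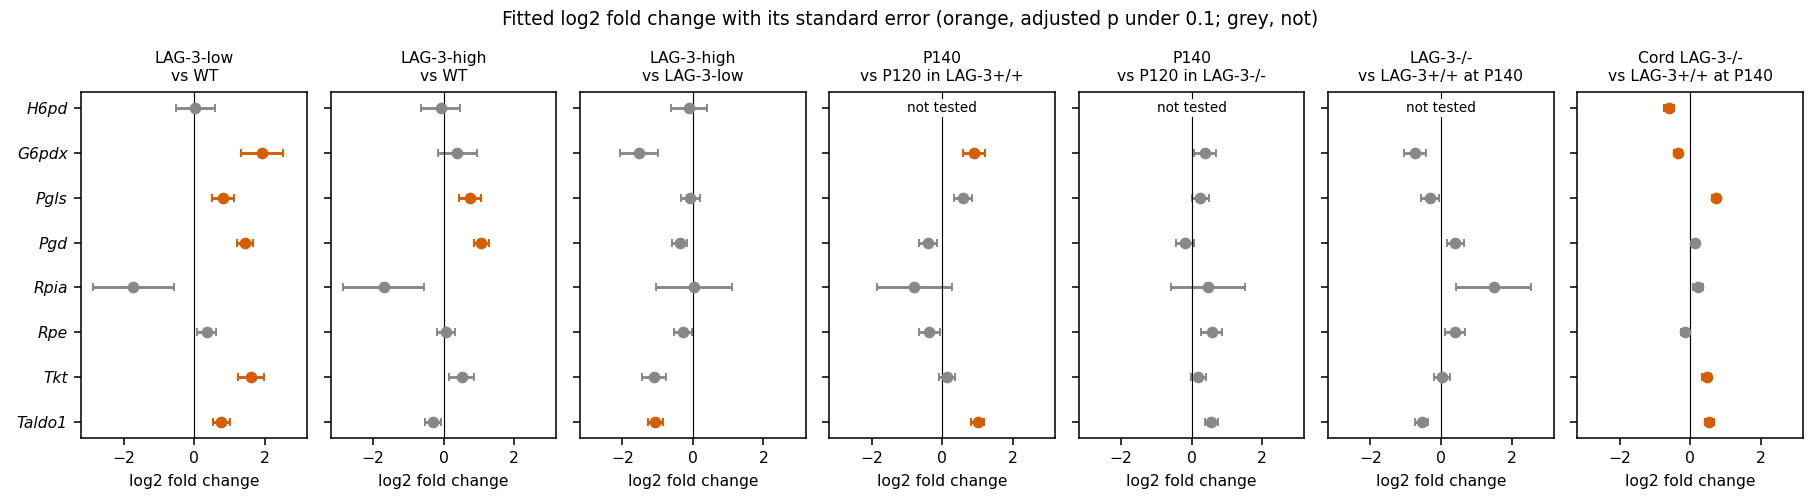
Fitted log2 fold changes (horizontal axes) of the 8 genes with their standard errors in 7 comparisons, orange where the adjusted p was under 0.1 and grey otherwise, with H6pd not tested in the stage table. Pgd, Tkt and G6pdx lie to the right in LAG-3-low against WT, Taldo1 and G6pdx in P140 against P120 of LAG-3+/+, and H6pd lies at -0.62 in cord.

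Per kilobase of canonical transcript, which allows levels to be set between genes, H6pd stood below Taldo1, Pgd, Pgls and Tkt in every group. In P120 LAG-3-/- microglia Taldo1 averaged 109 CPM per kb, Pgd 59.7, Tkt 41.4, Pgls 40.3, H6pd 8.96, G6pdx 8.03, Rpe 6.80 and Rpia 2.67. H6pd was below G6pdx and Rpe in the means of the other groups. In P120 LAG-3+/+ microglia H6pd and G6pdx were close, at 8.42 ± 3.39 and 9.38 ± 0.90 CPM per kb (SD, n = 3), and did not differ beyond their spread. In P140 LAG-3+/+ microglia they were 0.0253 ± 0.0337 and 17.5 ± 5.07 CPM per kb. In LAG-3-low microglia they were 9.05 ± 2.51 and 35.1 ± 9.99 CPM per kb (n = 5), and in LAG-3+/+ cord 2.69 ± 0.15 and 13.9 ± 1.15 CPM per kb (n = 3).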

How the data were processed

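Sorted microglia were sequenced from an unstranded library kit (SMART-seq mRNA HT LP) and cord from a strand-specific one (NEBNext Ultra II Directional). The authors trimmed reads with Trim Galore 0.6.7, quantified them with Salmon 1.9.0 against the GRCm39 transcriptome and imported them with tximport in R 4.2.1. They deposited estimated counts per Ensembl gene, which are neither whole nor normalized. The annotation release is not given in the sources used here. The values were rounded to whole numbers. Names, positions, lengths and GC content came from GENCODE vM39 (GRCm39), from which 71, 66 and 71 identifiers of the sort, stage and cord tables were absent (0.0479%, 0.0514% and 0.0145% of counts).

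Each table was fitted on its own with edgeR 4.0.16 (R 4.3.3). Genes were kept by filterByExpr at a minimum count of 10 and a minimum total of 15. The fit used TMM factors, the robust quasi-likelihood F-test and Benjamini-Hochberg adjustment over 16508, 18669 and 17702 genes. Calls needed an adjusted p under 0.1, in the sort and cord tables with an absolute log2 fold change over 1. The standard error is the log2 fold change over the square root of F. Correlations and levels on the log2 scale used a prior count of 2. The study gives the cord libraries as 3 mice per genotype. For the microglia libraries the sources used here do not say whether those of a group came from separate animals, so their p-values measure the spread between libraries, which may be technical. Same-numbered libraries were checked for shared deviations, and their correlations were small. The main fits paired no libraries. Lack of overlap between groups of libraries is a description of the values throughout. The share of all genes that also lacked overlap is not given. The fits were tested on simulated counts in which 200 genes had a log2 fold change of 2 in either direction. The calls recovered 36.5% of them in the sort, 40.0% in the stage table and 100% in the cord. Of the genes called, 7.60%, 4.76% and 3.85% were false. Among these 200 genes, many were thus missed in the 2 microglia tables. Recovery was not tested for the members. For P140 against P120 in LAG-3+/+ microglia, the tested members had standard errors of 0.18 (Taldo1) to 0.31 (G6pdx), apart from 1.05 for Rpia. Alternatives were DESeq2 1.42.0, other size factors, other filters and thresholds, a replicate block, listed sex, a length and GC fit, only the compared groups and leaving out each library. They were examined for the members and not for the genes of the lists.

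The members, lists and tests were chosen with earlier results of these data known. The text names all 8 members, the 5 genes most like H6pd, genes with a loss like that of H6pd, tested genes within 200 kb, and of each list the genes called or, under 3, those with the smallest adjusted p. Lists of markers of other cell types were used only as a check of what the libraries hold.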

Additional observations from a re-analysis of the deposited data

Results flagged for a closer look

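Of 24 groups of 4 or 5 libraries examined for the 8 genes in the LAG-3 sort, 3 had a library far from the others by Dixon's gap criterion at the 95% level, which chance gives in about 1 in 20 groups. G6pdx was 154.5 CPM in WT library 2 against 12.4 to 30.7 CPM in the other WT libraries. Rpia was 46.4 CPM in WT library 4 against 0.0565 to 5.32 CPM in the other WT libraries, and 9.08 CPM in LAG-3-high library 4 against 2.20 to 3.39 CPM in the others of that group. The G6pdx value of WT library 2 touches the comparisons with WT given above. No genotype-by-stage interaction was called for any of the 7 members tested, and 1 of them (Rpe) had an unadjusted p under 0.05, as did 2541 of all 18669 genes.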

How the results depend on the processing

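Of 663 recomputed values of 31 fold changes, 598 kept their direction and side of the threshold, 15 lost the call, 31 gained one and 19 changed sign. The count of members called between the SOD1G93A fractions, 1 in edgeR, was 3 in DESeq2, with the length and GC fit, with the 2 groups alone and without both WT libraries 1 and 4 (a setting added after seeing the data), and 2 with RLE factors and with no TMM factors. For LAG-3-high against WT, also 1, it was 0 with no TMM factors, with the length and GC fit and without both WT libraries, and 2 with no minimum fold. For LAG-3-low against WT it went from 3 to 2 with the 2 groups alone and without both WT libraries, to 4 with the length and GC fit and to 5 with no minimum fold, a setting that moved the cord count from 0 to 5. For genotype at P140 it went from 0 to 2 in DESeq2 and to 1 with RLE factors and with a mean of at least 10 counts. For P140 against P120 in LAG-3+/+ it went from 2 to 1 with no filter, the length and GC fit, an adjusted p under 0.05, an absolute log2 fold change over 1, and the replicate block (G6pdx, adjusted p = 0.107). Leaving out 1 library gave 0 to 3, 0 to 4, 3 to 4, 0 to 2 and 1 to 3 called in these microglia comparisons. The share of all genes called under an alternative is given only for the cord with no minimum fold (47.1%). Whether the other changes in count exceed those of genes at large is therefore not shown.

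Same-numbered libraries correlated at -0.119 to 0.0674 in the microglia tables and -0.0300 to 0.0223 in the cord, so the numbers were not read as pairs, and the block changed no other count. The H6pd difference in the stage table was -8.96 with a prior count of 0.5. Sign changes were all in values that did not pass, except cord G6pdx (0.00, 0.0029 unrounded) and Pgls (-0.10) under the length and GC fit. H6pd against WT turned to 0.0305 (no filter) and 0.13 (block) in LAG-3-high, and to -0.47 (length and GC fit, and without both WT libraries) in LAG-3-low. Against WT in LAG-3-high, G6pdx turned to -0.0482 (no TMM factors) and -0.37 (without both WT libraries), Tkt to -0.0189 (the latter) and Taldo1 to 0.0873 (length and GC fit). Taldo1 for genotype at P140 turned to 0.10 under that fit. Leaving out 1 library moved H6pd from -0.24 to 0.0613 between the fractions, from -0.47 to 0.68 for LAG-3-high against WT and from -0.31 to 0.78 for LAG-3-low against WT. The cause of these changes was not tested. Groups of 3 to 5 libraries limit what can be detected.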
